A study of Saccharomyces cerevisiae W303 with 9 samples.

Results

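The 36 genes described here are general stress genes of Saccharomyces cerevisiae that the transcription factors Msn2 and Msn4 are known to drive. They were chosen by name, by their locus tags, and make up 36 of the 7127 features in the deposited counts. All 36 passed the low-count filter and are among the 5970 genes tested. Msn2 and Msn4 are zinc-finger activators that bind a short promoter sequence, the stress response element. Protein kinase A and other nutrient signals keep them out of the nucleus in glucose-grown cells, and heat, oxidants, osmotic shock or nutrient loss let them in. Their targets make the storage sugars trehalose and glycogen, detoxify oxidants, and encode small stress proteins, so that in cells growing on glucose most of these genes are known to be weakly expressed.

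Polyadenylated RNA of 3 strains in the W303 background was sequenced in 9 libraries, 3 per strain: a wild type, a strain with AIM29 deleted, and that deletion carrying pmTDH3-ZPR1, a construct whose prefix the labels do not spell out. All were grown in rich medium with glucose (YPD) to mid-log phase, at an optical density of 0.4 to 0.6, from 3 isolates of each strain. The construct strain has no counterpart with AIM29 intact, so every ZPR1 comparison is made without AIM29. Zpr1 is a chaperone that helps fold the translation elongation factor eEF1A. P-values measure the spread between isolates, estimated over all 9 libraries together in the main model. Those for the deletion against the wild type therefore also carry the spread of the construct libraries. AIM29 stood at 75.95, 82.2 and 76.9 CPM (counts scaled to library depth) in the wild-type libraries, at 0.782, 3.87 and 3.63 CPM in the deletion libraries and at 7.46, 7.05 and 5.17 CPM in the construct libraries. ZPR1 stood at 329, 322 and 337 CPM in the wild type, 445, 399.5 and 421 CPM in the deletion and 5645, 4856 and 5639.6 CPM with the construct, 12.8-fold above the deletion strain.

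Total counts ran from 14380639 to 20140071 per library. The 3 construct libraries differed from each other more than the others did: the biological coefficient of variation was 14.8% among them, against 5.22% in the wild type and 3.76% in the deletion strain. Construct replicate 3 stands apart over all genes as well as for the general stress genes. Chi-square per degree of freedom over all genes was 52.9 and 65.8 for its counts against construct replicates 1 and 2. Between construct replicates 1 and 2 it was 25.7. The construct libraries are therefore given one by one for most genes. A log2 difference between strains that replicate 3 changed in sign or by more than 1.5 times is also given without it.

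Of the 36 promoters, 25 (69.4%) held the stress response element, AGGGG on either strand, in the 250 bases before the start codon. Of the 6001 promoters of nuclear protein-coding genes, 18.8% did. At least 2 copies were present in 10 of the 36 (27.8%), against 2.2% of all promoters. The heat shock element GAANNTTC, the same on both strands and a core of the Hsf1 binding sequence, was present in 3 of the 36 (8.33%; MSN4, PAI3 and HXK1), against 9.93% of all; none of these overlapped a stress response element. Promoters of 4 genes that the results below turn on are shown 5′ to 3′ on the strand of each gene, read from the RefSeq sequence of build R64, with the stress response elements in capitals. Those of GLK1 (chrIII:50588-50837, plus strand) and TSL1 (chrXIII:70374-70623, plus strand) hold 3 copies, as do those of DDR2 and AIM17. That of HSP12 (chrVI:107006-107255, plus strand) holds 2 copies. That of HXK1 (chrVI:255050-255299, minus strand) has no copy in this window.
GLK1: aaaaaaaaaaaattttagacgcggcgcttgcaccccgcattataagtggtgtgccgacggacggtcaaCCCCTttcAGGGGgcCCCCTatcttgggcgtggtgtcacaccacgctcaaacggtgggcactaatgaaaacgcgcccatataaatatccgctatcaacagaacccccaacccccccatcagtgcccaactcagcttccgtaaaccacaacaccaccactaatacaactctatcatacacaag
TSL1: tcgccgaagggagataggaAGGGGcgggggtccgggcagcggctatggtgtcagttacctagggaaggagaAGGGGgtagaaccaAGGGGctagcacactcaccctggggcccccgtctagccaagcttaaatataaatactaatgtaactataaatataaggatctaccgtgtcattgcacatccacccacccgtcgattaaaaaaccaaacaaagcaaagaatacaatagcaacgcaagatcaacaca
HSP12: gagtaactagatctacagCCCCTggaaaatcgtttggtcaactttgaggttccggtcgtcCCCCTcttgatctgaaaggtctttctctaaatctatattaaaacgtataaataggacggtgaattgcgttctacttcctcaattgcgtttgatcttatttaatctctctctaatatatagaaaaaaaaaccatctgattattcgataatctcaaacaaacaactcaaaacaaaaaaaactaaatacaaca
HXK1: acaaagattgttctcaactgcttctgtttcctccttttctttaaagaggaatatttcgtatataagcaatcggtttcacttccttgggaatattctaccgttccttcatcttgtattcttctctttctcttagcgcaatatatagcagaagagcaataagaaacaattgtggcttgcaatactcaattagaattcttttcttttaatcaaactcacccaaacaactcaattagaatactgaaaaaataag

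None of the 36 genes passed the test in any of the 3 comparisons, by edgeR quasi-likelihood with Benjamini-Hochberg adjustment over all genes at 0.05. In the deletion strain they stood near their wild-type levels, with a median log2 difference of −0.033 and a range from −0.38 (GND2) to 0.36 (DDR2). In the construct strain 33 of the 36 had a positive log2 difference from the deletion strain, with a median of 0.32 and a range from −0.72 (PAI3) to 1.06 (HXK1). Against the wild type 32 had a positive difference, with a median of 0.29 and a range from −0.41 (PAI3) to 1.30 (HXK1). These medians for the construct strain were 0.0998 and 0.087 without construct replicate 3, with 23 and 20 of the 36 positive. Each pair of the 3 comparisons shares the libraries of 1 group. Over all genes tested the medians were 0.0035, 0.0031 and 0.0076, and 50.8%, 50.8% and 52.1% of genes were positive.

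The background of calls over all genes was 6.4% for the deletion against the wild type (4.24% higher, 2.16% lower). It was 5.38% for the construct strain against the deletion (1.66% higher, 3.72% lower) and 0.184% for the construct strain against the wild type (0.117% higher, 0.067% lower). At an unadjusted p under 0.05 the 36 genes counted 1, 14 and 12, beside 21.8%, 22.5% and 12.8% of all genes. DESeq2 called 0, 7 and 0 of them, beside 10%, 8.39% and 1.21% of all genes, and limma-voom 0, 0 and 0, beside 6.11%, 5.29% and 0.168%. With library quality weights limma-voom called 3, 1 and 0, beside 26.2%, 10.4% and 0.67%. Between the deletion and the wild type the libraries of the 2 groups did not overlap for 7 of the 36 genes, 2 higher and 5 lower, beside 21.1% and 19.2% of all genes (40.4% together). Between the construct strain and the deletion 12 did not overlap, 11 higher and 1 lower, beside 12.2% and 13.5% of all genes (25.7% together). Between the construct strain and the wild type 8 did not overlap, all higher, beside 7.81% of all genes higher and 8.58% lower (16.4% together).

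The standard error of the log2 difference was larger for these genes than for most. Its median over the 36 was 0.159, 0.158 and 0.155 in the 3 comparisons, against 0.0885, 0.0882 and 0.0877 over all genes.

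**Figure D1:**
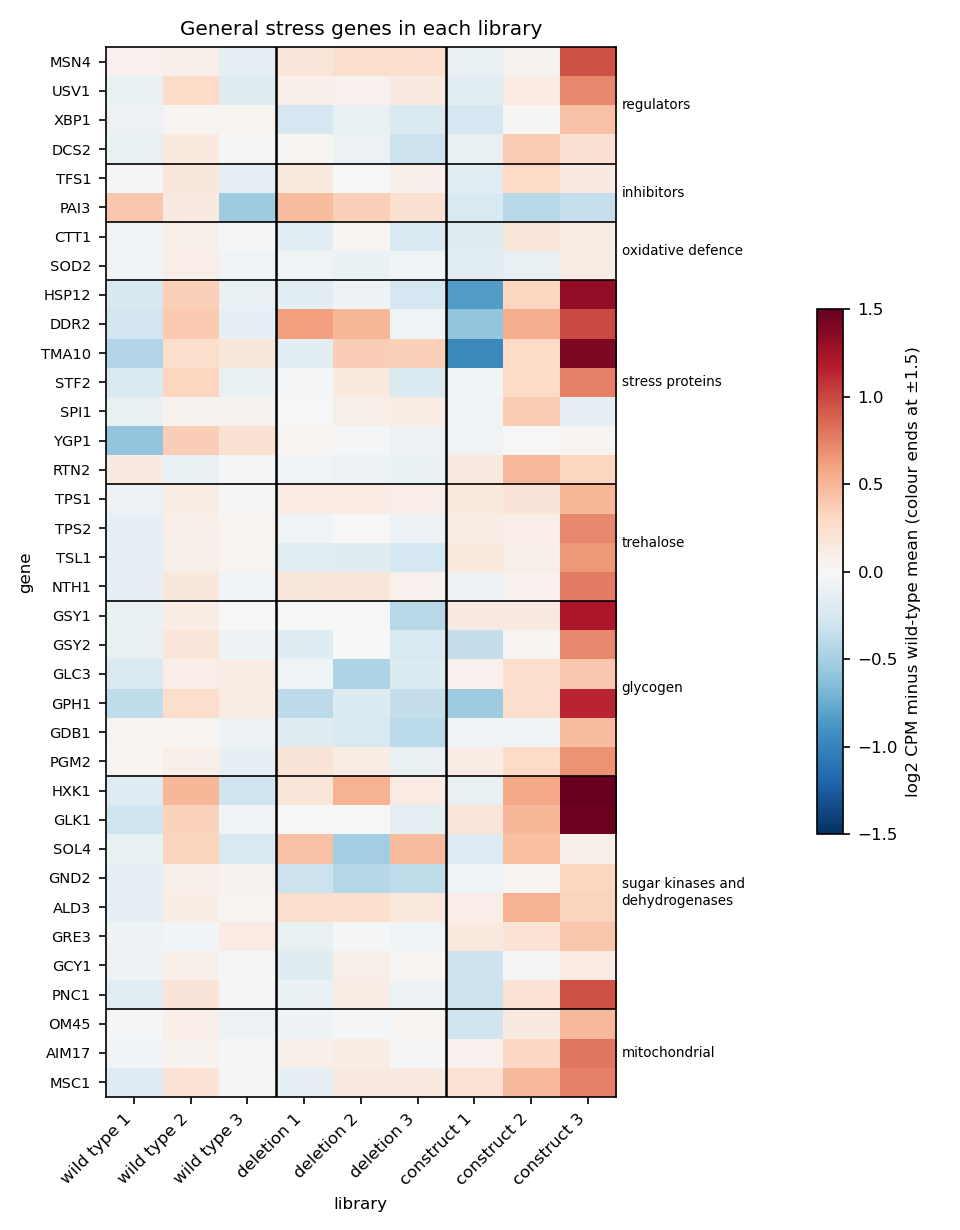
Each cell is the log2 CPM of a gene (rows, grouped by role) in a library (columns) minus its mean over the 3 wild-type libraries, with colours ending at ±1.5. The column of construct replicate 3 is mostly red (median 0.57), whereas construct replicate 1 (median −0.086) and the deletion columns (medians −0.075 to 0.0015) are pale.

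The libraries of a group ranked alike for many of the genes. Relative to the wild-type mean, their median log2 level was −0.11, 0.11 and −0.032 in wild-type replicates 1 to 3, and −0.034, 0.0015 and −0.075 in the deletion replicates. It was −0.086, 0.21 and 0.57 in the construct replicates. So construct replicate 1 lay within the spread of the wild type, replicate 2 above it and replicate 3 far above it. The number of the 36 above all 3 wild-type libraries was 9 in construct replicate 1, 21 in replicate 2 and 31 in replicate 3, beside 29.6%, 33.8% and 37.3% of all genes. In the deletion libraries it was 9, 10 and 5, beside 34.8%, 35.9% and 34.2%. Summed over the 36 genes, the level was 1195, 1474 and 1305 CPM in the wild type and 1313, 1344 and 1267 CPM in the deletion strain. In the construct strain the sum was 1258, 1458 and 2137 CPM, and only the last of these exceeded the wild-type range. In bulk RNA, more RNA per cell and more cells that carry it cannot be told apart.

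Within the construct group, replicate 3 was the highest library for 28 of the 36 genes and replicate 1 the lowest for 32, beside 36.2% and 27.9% of all genes. A smaller order of the same kind was present in the wild type, where replicate 2 was highest for 30 and replicate 1 lowest for 25, beside 33% and 34.6% of all genes. The median SD of log2 CPM over the 36 genes was 0.132, 0.0868 and 0.315 for the wild type, deletion and construct groups, against 0.0682, 0.0678 and 0.138 over all genes. The median ratio of construct replicate 3 to replicate 1 was 1.46 over the 36 genes and 0.989 over all genes. Replicate 3 was more than 2-fold above replicate 1 for 10 of the 36 and 1.79% of all genes. For replicate 3 over replicate 2 the median was 1.31 (0.992 over all genes), with 4 genes more than 2-fold above (1.39% of all genes). For replicate 2 over replicate 1 it was 1.22 (1.005 over all genes), with 3 genes (0.854%). Genes more than 2-fold lower were not counted.

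Among the regulators, MSN4 (YKL062W) itself, the stress-inducible partner of Msn2, stood at 73.03, 73.7 and 63.05 CPM in the wild type, 78.9, 83.6 and 82.9 CPM in the deletion and 65.2, 72.1 and 136 CPM in the construct strain. Every deletion library lay above every wild-type library by a small step, and construct replicate 3 lay far above both other construct libraries. The log2 difference was 0.23 ± 0.22 for the deletion against the wild type and 0.15 ± 0.22 for the construct strain against the deletion. Without construct replicate 3 the latter was −0.25 ± 0.074 (edgeR quasi-likelihood, Benjamini-Hochberg adjusted p = 0.0543), so its sign rests on that library. XBP1 (YIL101C), a transcriptional repressor made under stress, stood at 13.1, 14.4 and 14.4 CPM in the wild type, 11.7, 12.9 and 12.02 CPM in the deletion and 11.7, 14.2 and 18.999 CPM with the construct. Its deletion libraries lay just below the wild type, and construct replicate 3 was again the highest library. DCS2 (YOR173W), a stress-induced relative and modulator of the mRNA cap-scavenging enzyme Dcs1, stood at 8.99, 10.8 and 9.54 CPM, 9.95, 9.14 and 7.76 CPM and 8.99, 12.8 and 11.4 CPM in the same groups. Here construct replicate 2 was the highest and the groups overlapped. The zinc-finger protein gene USV1 (YPL230W) had means of 10.8 ± 2.004 and 11.4 ± 0.332 CPM (SD, n = 3) in the wild type and deletion and stood at 9.55, 11.6 and 17.7 CPM in the construct libraries. Its log2 difference of the construct strain from the deletion was 0.19 ± 0.21 with all libraries and −0.098 ± 0.16 without construct replicate 3, so the sign rests on that library.

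The inhibitor genes did not share the construct pattern. TFS1 (YLR178C), an inhibitor of the vacuolar carboxypeptidase Y, stood at 13.98, 16.04 and 12.99 CPM in the wild type, 15.8, 14.3 and 15.02 CPM in the deletion and 12.7, 17.5 and 15.7 CPM with the construct, all groups overlapping. PAI3 (YMR174C) encodes an inhibitor of the vacuolar protease A and is a weakly expressed gene, with 2.69, 2.21 and 1.35 CPM in the wild type, 2.84, 2.603 and 2.38 CPM in the deletion and 1.696, 1.48 and 1.56 CPM with the construct. It was the only gene of the 36 whose construct libraries all lay below the deletion libraries. Its log2 difference of −0.72 ± 0.26 did not pass the test (edgeR quasi-likelihood, Benjamini-Hochberg adjusted p = 0.139), and without construct replicate 3 it was −0.72 ± 0.30.

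The oxidant defence genes differed little between libraries. CTT1 (YGR088W), the cytosolic catalase and a textbook Msn2 and Msn4 target, stood at 9.51, 10.5 and 9.67 CPM in the wild type, 8.82, 10.2 and 8.46 CPM in the deletion and 8.705, 11.2 and 10.7 CPM with the construct. The 3 groups overlapped and construct replicate 3 was not the highest of its group. SOD2 (YHR008C), the mitochondrial manganese superoxide dismutase, had means of 129.9 ± 7.902 CPM in the wild type, 124 ± 2.02 CPM in the deletion and 125 ± 12.7 CPM in the construct strain (SD, n = 3), with log2 differences of −0.072 ± 0.074 and 0.021 ± 0.074 in the first 2 comparisons. Without construct replicate 3 the second was −0.064 ± 0.055.

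Several small stress protein genes were uneven among the construct libraries. HSP12 (YFL014W), a membrane-binding protein often used to report Msn2 and Msn4 activity, stood at 39.01, 59.1 and 42.7 CPM in the wild type and 41.2, 43.9 and 38.4 CPM in the deletion. In the construct strain it stood at 25.8, 57.9 and 116 CPM. Construct replicate 1 was the lowest of all 9 libraries and replicate 3 the highest, 4.48-fold apart. The log2 difference of the construct strain from the deletion was 0.70 ± 0.40 (edgeR quasi-likelihood, Benjamini-Hochberg adjusted p = 0.330), and 0.035 ± 0.25 without construct replicate 3. DDR2 (YOL052C-A), a small protein induced by many stresses, stood at 3.27, 5.24 and 3.63 CPM in the wild type, 6.11, 5.63 and 3.77 CPM in the deletion and 2.6002, 5.86 and 7.97 CPM with the construct. It had the largest positive log2 difference of the 36 between deletion and wild type, 0.36 ± 0.37, with overlapping groups (adjusted p = 0.626 by edgeR quasi-likelihood with Benjamini-Hochberg adjustment). TMA10 (YLR327C), a ribosome-associated protein, stood at 2.26, 5.62 and 12.2 CPM in the construct libraries, 5.16-fold higher in replicate 3 than in replicate 1. Its paralog STF2 (YGR008C), known for a role in regulating the mitochondrial ATP synthase, stood at 16.5, 20.9 and 28.6 CPM there.

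Not every gene of this class followed construct replicate 3. SPI1 (YER150W), a cell wall protein, stood at 4.805, 6.48 and 4.52 CPM in the construct libraries and YGP1 (YNL160W), a secreted glycoprotein, at 117, 122 and 125 CPM. YGP1 stood at 80.1, 156 and 142 CPM in the wild type, where replicate 1 was the low library, and at 124, 118 and 114 CPM in the deletion. Without that library YGP1 was called lower in the deletion strain, the only gene of the 36 called there. Of the 6001 genes then tested, 53 were called lower and 139 higher (3.2% together). RTN2 (YDL204W), a reticulon of the endoplasmic reticulum, stood at 17.4, 14.7 and 15.6 CPM in the wild type, 15.3, 14.8 and 14.7 CPM in the deletion and 17.5, 22.2 and 19.9 CPM in the construct strain. All 3 construct libraries lay above all 6 others. Its log2 difference from the deletion was 0.41 ± 0.11 with all libraries and 0.41 ± 0.12 without construct replicate 3 (edgeR quasi-likelihood, Benjamini-Hochberg adjusted p = 0.0563 and 0.0543).

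**Figure D2:**
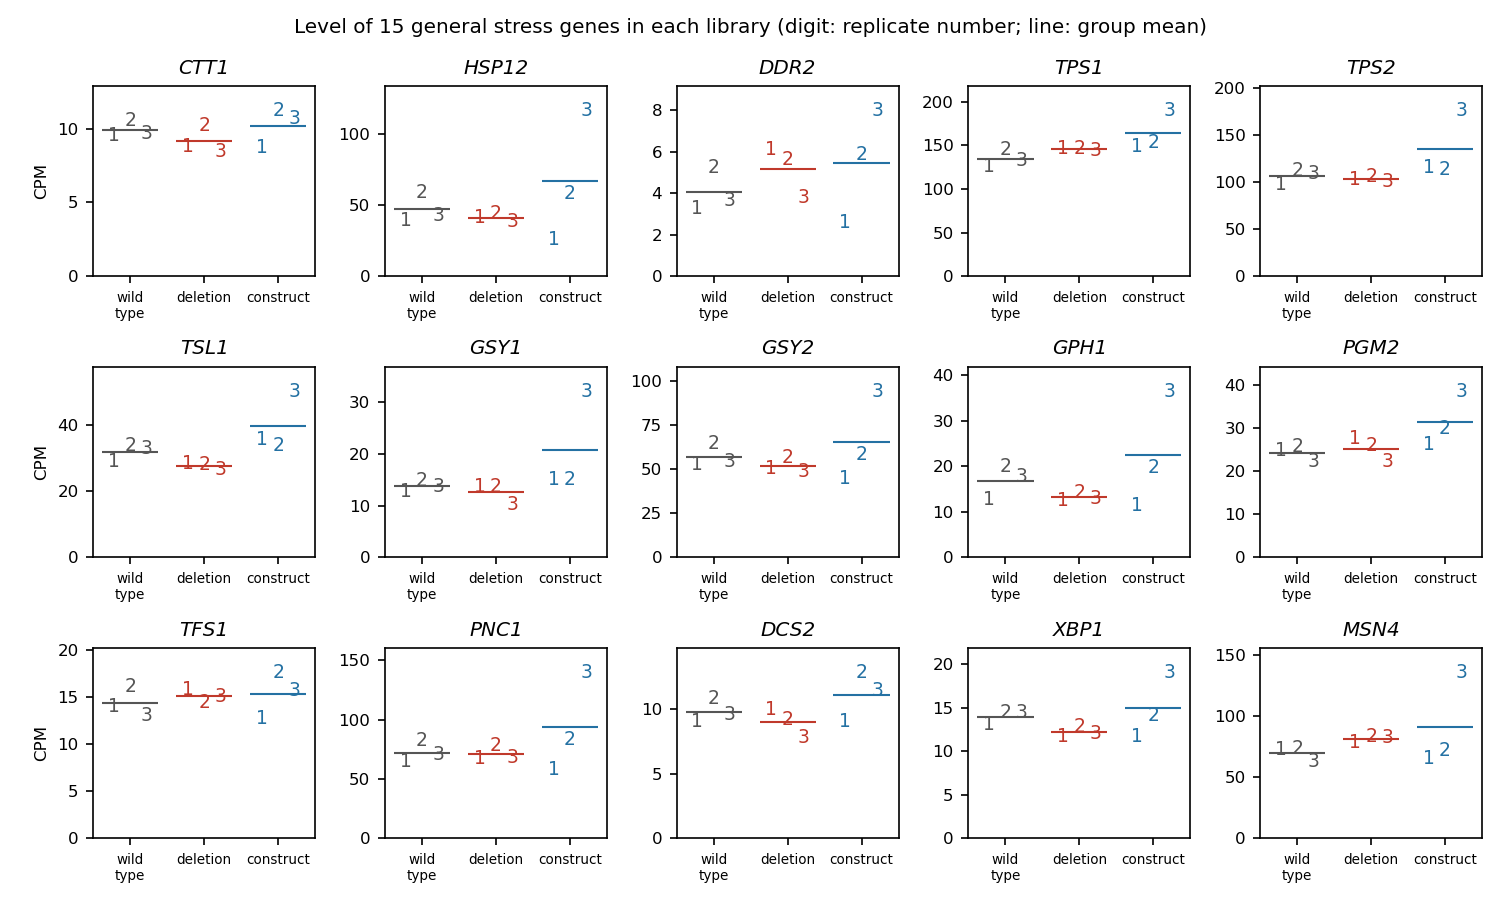
Level in CPM (vertical axis from 0) of 15 of the genes in the 3 groups, with each library drawn as its replicate number and the group mean as a line. Construct replicate 3 is the highest library in panels such as HSP12 (116 CPM), GSY1 (32.0 CPM) and PNC1 (139 CPM), but not in CTT1, TFS1 or DCS2.

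Trehalose is made by a complex of synthase, phosphatase and regulatory subunits and split by trehalase. TPS1 (YBR126C), the synthase, stood at 126, 145 and 132 CPM in the wild type, 147, 146 and 144 CPM in the deletion and 149, 153 and 189 CPM with the construct. All 3 construct libraries lay above all 6 others, by a small margin in replicates 1 and 2. TPS2 (YDR074W), the phosphatase, stood at 97.5, 113 and 109 CPM, 103, 106 and 100.2 CPM and 115, 114 and 176 CPM in these groups, again with no overlap between the construct strain and the others. TSL1 (YML100W), a regulatory subunit, stood at 28.9, 33.97 and 32.9 CPM in the wild type, 28.4, 28.1 and 26.5 CPM in the deletion and 35.6, 33.9 and 50.1 CPM with the construct. Its deletion libraries were all below the wild type and its construct libraries all above the deletion. The log2 difference of the construct strain from the deletion was 0.53 ± 0.14, with the lowest p of the 36 (edgeR quasi-likelihood, Benjamini-Hochberg adjusted p = 0.0549). TSL1 passed the threshold when any 1 of the construct libraries was left out, at 0.33 ± 0.088 without replicate 3 (adjusted p = 0.0351 by the same test). It also passed by DESeq2, with library quality weights and without composition factors. TSL1 did not pass when any 1 wild-type or deletion library was left out, or with the 2 groups compared alone. Nor did it pass with a replicate block or by limma-voom without quality weights. NTH1 (YDR001C), the neutral trehalase that degrades the sugar, stood at 91.3, 101 and 163 CPM in the construct libraries against means of 96.5 ± 10.2 CPM in the wild type and 106 ± 4.65 CPM in the deletion (SD, n = 3). For the 4 trehalose genes the median log2 level relative to the wild-type mean was 0.13, 0.094 and 0.69 in construct replicates 1 to 3.

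The 6 glycogen genes had a median of 0.006, 0.19 and 0.69 in the construct replicates and of −0.12, −0.11 and −0.29 in the deletion replicates. GSY1 (YFR015C), a glycogen synthase, stood at 12.7, 14.9 and 13.7 CPM in the wild type, 13.7, 13.7 and 10.3 CPM in the deletion and 15.1, 15.1 and 31.97 CPM with the construct. Construct replicates 1 and 2 were just above the wild type, and replicate 3 was 2.11-fold above both. GSY2 (YLR258W), the more abundant synthase, stood at 52.4, 64.7 and 54.1 CPM, 50.1, 56.3 and 48.3 CPM and 44.4, 58.3 and 93.7 CPM in the same groups, with construct replicate 1 below the wild type. GPH1 (YPR160W), the phosphorylase that releases glucose units, stood at 12.6, 19.8 and 17.8 CPM, 12.5, 14.2 and 12.9 CPM and 11.3, 19.8 and 36.3 CPM. It showed the same order, with construct replicate 1 the lowest of the 9 libraries and replicate 3 the highest. PGM2 (YMR105C), the phosphoglucomutase that links glycogen to glycolysis, stood at 24.7, 25.6 and 22.1 CPM, 27.5, 25.96 and 22.2 CPM and 26.1, 29.8 and 38.4 CPM.

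The branching enzyme gene GLC3 (YEL011W) and the debranching enzyme gene GDB1 (YPR184W) were also highest in construct replicate 3. GLC3 had means of 21.9 ± 2.75 and 18.5 ± 2.53 CPM in the wild type and deletion (SD, n = 3) and stood at 22.7, 25.7 and 28.8 CPM with the construct. GDB1 had means of 50.3 ± 2.31 and 41.6 ± 3.32 CPM (SD, n = 3) and stood at 48.4, 48.8 and 69.0004 CPM in the same order. For both, no construct library overlapped a deletion library, and the log2 differences between these strains were 0.48 ± 0.13 and 0.41 ± 0.13. Adjusted p-values were 0.067 and 0.0973 by edgeR quasi-likelihood with Benjamini-Hochberg adjustment. Without construct replicate 3 the differences were 0.39 ± 0.13 and 0.22 ± 0.079. The deletion libraries of GDB1 also lay below all wild-type libraries, with a log2 difference of −0.27 ± 0.13.

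Among the 36, the enzymes that phosphorylate glucose had the largest log2 differences of the construct strain from both other strains. HXK1 (YFR053C), the hexokinase that glucose represses, stood at 22.4, 36.1 and 20.7 CPM in the wild type, 28.9, 36.6 and 27.95 CPM in the deletion and 23.6, 38.1 and 133 CPM with the construct. Construct replicates 1 and 2 lay close to the other strains, and replicate 3 was 5.603-fold above replicate 1 and 3.48-fold above replicate 2. The log2 difference from the wild type, 1.30 ± 0.52, and that from the deletion, 1.06 ± 0.51, had adjusted p-values of 0.351 and 0.251 by edgeR quasi-likelihood with Benjamini-Hochberg adjustment. Without construct replicate 3 they were 0.24 ± 0.22 and −0.0075 ± 0.22. GLK1 (YCL040W), the glucokinase, stood at 29.9, 46.9 and 35.5 CPM in the wild type, 36.97, 36.5 and 33.5 CPM in the deletion and 41.6, 51.9 and 102 CPM with the construct. All construct libraries lay above all deletion libraries, and replicate 3 was 1.97-fold above replicate 2. Its log2 difference from the deletion was 0.87 ± 0.29 (adjusted p = 0.109 by edgeR quasi-likelihood with Benjamini-Hochberg adjustment), and 0.39 ± 0.15 without replicate 3.

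PNC1 (YGL037C), the nicotinamidase that feeds NAD salvage, stood at 64.4, 82.2 and 70.2 CPM in the wild type, 66.98, 77.9 and 67.99 CPM in the deletion and 57.7, 83.1 and 139 CPM with the construct. Replicates 1 and 2 of the construct lay on either side of the other strains, and replicate 3 was the highest of all. GND2 (YGR256W), the minor phosphogluconate dehydrogenase of the pentose phosphate pathway, stood at 8.53, 9.98 and 9.73 CPM in the wild type, 7.47, 6.96 and 7.197 CPM in the deletion and 8.99, 9.58 and 11.7 CPM with the construct. It was the only gene of the 36 with an unadjusted p under 0.05 between deletion and wild type (log2 difference −0.38 ± 0.13, adjusted p = 0.122 by edgeR quasi-likelihood with Benjamini-Hochberg adjustment). Its deletion libraries were below all others, and the construct strain differed from the deletion by 0.49 ± 0.13 (adjusted p = 0.0638 by the same test).

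GRE3 (YHR104W), an aldose reductase, stood at 49.7, 51.9 and 60.2 CPM in the construct libraries, above means of 45.1 ± 3.32 CPM in the wild type and 42.9 ± 1.36 CPM in the deletion (SD, n = 3). Its log2 difference from the deletion was 0.33 ± 0.088 (adjusted p = 0.058 by edgeR quasi-likelihood with Benjamini-Hochberg adjustment). GCY1 (YOR120W), a related reductase, had means of 15.2 ± 0.932, 14.996 ± 1.44 and 14.6 ± 2.21 CPM, and SOL4 (YGR248W), a phosphogluconolactonase, of 2.51 ± 0.566, 2.87 ± 1.02 and 2.74 ± 0.648 CPM, in the wild type, deletion and construct strain. Neither separated the groups. ALD3 (YMR169C), a cytosolic aldehyde dehydrogenase, had means of 9.03 ± 0.815, 10.5 ± 0.401 and 11.3 ± 1.65 CPM. Only 59.7% of its 50-base windows occur once in the genome, since ALD2 is a near copy, so its values are uncertain; for the other 35 genes all windows are unique. GLK1 overlaps the open reading frame YCL042W on the same strand, and no other member overlaps an annotated gene.

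Among the 3 genes of mitochondrial proteins, MSC1 (YML128C) stood at 22.7, 27.4 and 32.9 CPM in the construct libraries, beside 20.2 ± 2.12 CPM in the deletion strain (SD, n = 3). AIM17 (YHL021C) stood at 26.6, 31.7 and 44.03 CPM, beside 26.5 ± 1.22 CPM, and OM45 (YIL136W), an outer membrane protein, at 23.5, 31.6 and 40.3 CPM, beside 28.4 ± 1.14 CPM. All 3 were highest in construct replicate 3. Without that library the log2 difference of the construct strain from the deletion went from 0.45 ± 0.15 to 0.31 ± 0.13 for MSC1, from 0.36 ± 0.15 to 0.14 ± 0.094 for AIM17 and from 0.16 ± 0.16 to −0.040 ± 0.12 for OM45. The median of the 3 relative to the wild-type mean was 0.064, 0.32 and 0.76 in construct replicates 1 to 3.

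How many of the 36 passed the test in the construct strain against the deletion depended on the construct libraries. With all 9 libraries the count was 0, and the lowest adjusted p-values, 0.0549 to 0.067, belonged to TSL1, RTN2, GRE3, GND2 and GLC3 by edgeR quasi-likelihood with Benjamini-Hochberg adjustment. Without construct replicate 1 it was 10, all higher in the construct strain (AIM17, GLC3, GLK1, GND2, GPH1, GRE3, HSP12, MSC1, RTN2 and TSL1), beside 2.51% of all genes called higher. Leaving out construct replicate 2 gave 5 (GDB1, GND2, GRE3, TPS2 and TSL1), beside 5.21% called higher. Leaving out construct replicate 3 gave 1, TSL1, beside 3% called higher. The 7 that DESeq2 called with all libraries were GDB1, GLC3, GND2, GRE3, MSC1, RTN2 and TSL1, all higher, beside 3.25% of all genes called higher. In the deletion against the wild type, leaving out construct replicate 3 from the shared fit brought the count to 3 (MSN4 higher, GDB1 and GND2 lower), beside 18.3% of all genes called.

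**Figure D3:**
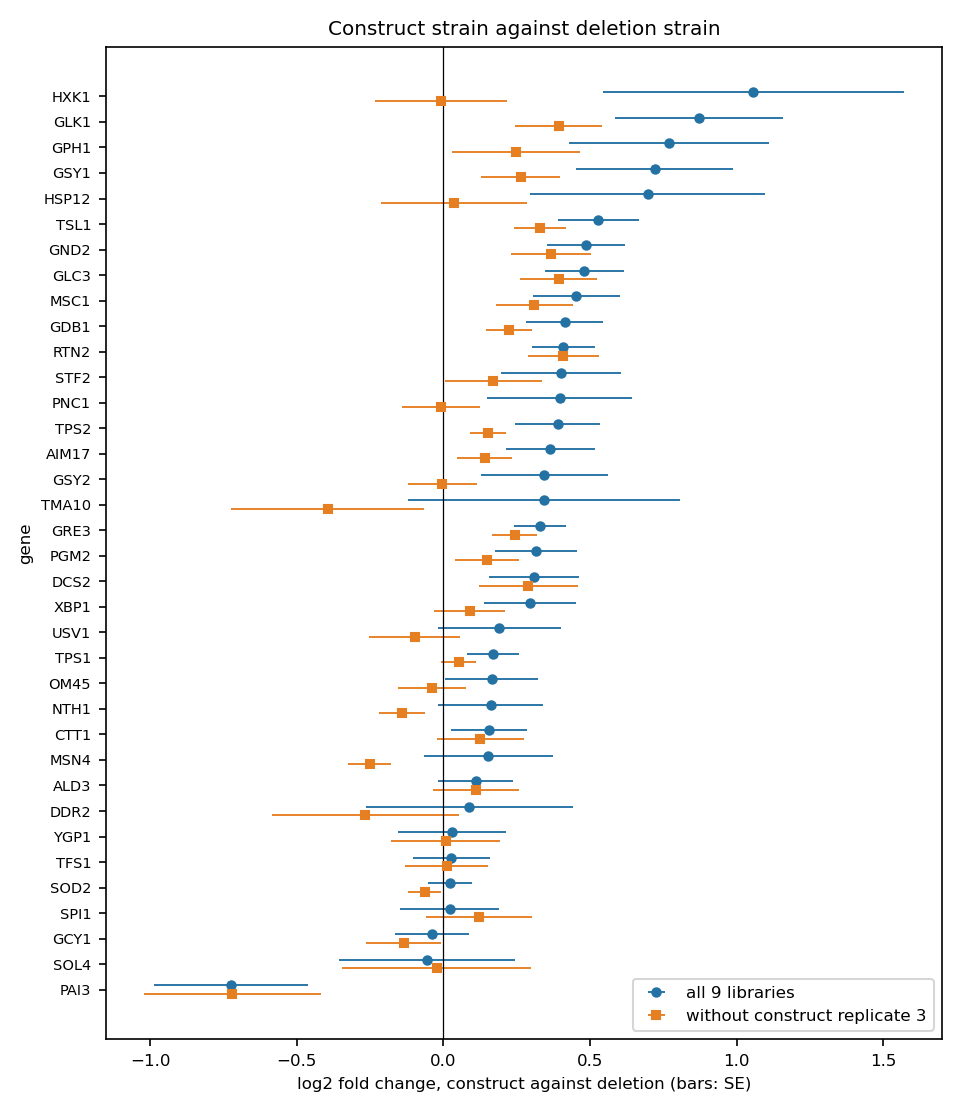
Log2 fold change of each gene in the construct strain against the deletion (bars are SE), with all 9 libraries (circles) and without construct replicate 3 (squares). HXK1 goes from 1.06 to −0.0075 and HSP12 from 0.70 to 0.035, whereas RTN2 stays at 0.41 and PAI3 at −0.72.

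A list of 34 genes tied to the control of Msn2 and Msn4 was also examined. It holds genes of protein kinase A, TOR and related signalling, and also GIS1 and MSN2 itself. Of the 34, 0 were called in any comparison by edgeR quasi-likelihood. At an unadjusted p under 0.05 they counted 3, 9 and 8, beside 21.8%, 22.5% and 12.8% of all genes, and DESeq2 called 1, 2 and 0, beside 10%, 8.39% and 1.21%. Leaving out 1 construct library gave 2 or 3 edgeR calls in the construct strain against the deletion. Over all genes 6.95%, 12% and 8.66% were then called, without construct replicates 1 to 3 in turn. Leaving out 1 other library gave 0 of the 34, beside 2.41% to 4.55% of all genes. Their median relative to the wild-type mean was 0.051, 0.033 and 0.22 in construct replicates 1 to 3. The number of the 34 above all 3 wild-type libraries was 15, 13 and 26 there, beside 29.6%, 33.8% and 37.3% of all genes, so these genes too were highest in construct replicate 3. MSN2, the constitutive partner, stood at 69.02, 64.5 and 69.02 CPM in the wild type, 65.3, 76.8 and 68.8 CPM in the deletion and 73.8, 74.2 and 83.05 CPM with the construct. All construct libraries lay above all wild-type libraries, and the deletion overlapped both groups. The log2 difference of the construct strain from the wild type, 0.19 ± 0.076, did not pass the test (adjusted p = 0.361 by edgeR quasi-likelihood with Benjamini-Hochberg adjustment). PDE2, the phosphodiesterase that breaks down cyclic AMP, had log2 differences of 0.21 ± 0.059 in the deletion and −0.22 ± 0.058 in the construct strain against the deletion (adjusted p = 0.0633 and 0.0539 by edgeR quasi-likelihood with Benjamini-Hochberg adjustment). BCY1, the inhibitory subunit of protein kinase A, stood at 176, 172 and 217 CPM in the construct libraries and 154, 152 and 149.6 CPM in the deletion, and differed by 0.31 ± 0.081 (adjusted p = 0.0545 by the same test). Without construct replicate 3 both genes passed the threshold in the construct strain against the deletion, BCY1 at 0.19 ± 0.047 and PDE2 at −0.20 ± 0.059 (adjusted p = 0.0198 and 0.0496 by the same test).

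The stress genes that another factor shares or drives gave a different picture in the deletion strain. Of 18 targets of the heat shock factor Hsf1, all 18 rose in the deletion (median log2 difference 1.08) and 17 fell in the construct strain against the deletion (median −0.84), by edgeR quasi-likelihood. When any 1 library was left out, 17 or 18 were called in the first comparison and 17 in the second. Among 7 heat shock genes with input from both Hsf1 and Msn2 and Msn4, the disaggregase HSP104 (1.21 ± 0.13), the mitochondrial chaperone HSP78 (1.62 ± 0.16) and the small heat shock protein HSP42 (0.98 ± 0.18) rose in the deletion. These 3 are also on the list of 18, and HSP104 (−0.82 ± 0.13) and HSP78 (−1.39 ± 0.15) fell in the construct strain against the deletion. The other 4, UBI4, HSP26, SSA4 and DDR48, were not called, and HSP42 was not called without wild-type replicate 3 or deletion replicate 2. In construct replicates 1 to 3 the 18 Hsf1 targets had medians of 0.075, 0.37 and 0.24 relative to the wild type, so the library in which they were highest was replicate 2. The 7 genes with both inputs had medians of −0.012, 0.18 and 0.60 there, and by median were highest in replicate 3. The number above all wild-type libraries was 1, 5 and 4 of the 7, beside 29.6%, 33.8% and 37.3% of all genes. The number below them was 3, 1 and 2, beside 30.3%, 32.7% and 38.6%.

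**Figure D4:**
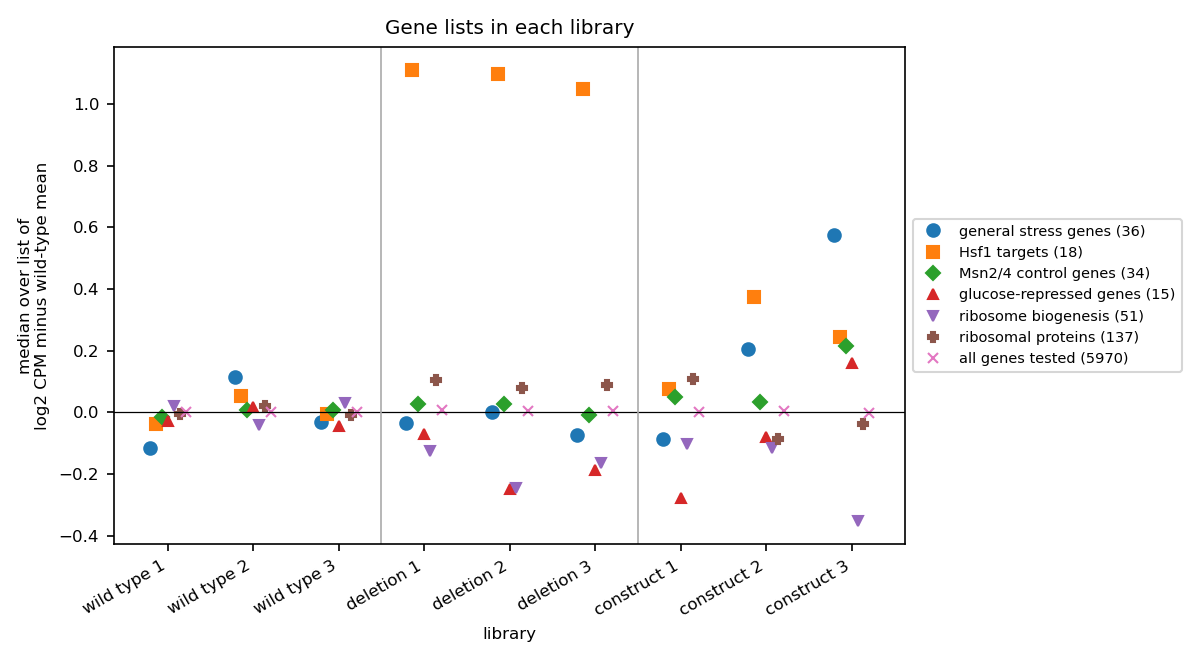
Median over each gene list of log2 CPM minus the wild-type mean (vertical axis) in each of the 9 libraries; the number of genes is in the legend. The Hsf1 targets stand at 1.05 to 1.11 in the deletion libraries, where the 36 general stress genes stay between −0.075 and 0.0015, and the 36 reach 0.57 in construct replicate 3.

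Many of the 36 have a paralog or isoenzyme. A list of 21 related genes was examined, which holds such partners and also UGP1, GLG1, GLG2, GAC1, PIG1 and GIP2, other genes of glycogen synthesis and its regulation. In the construct strain against the deletion 2 of them, beside 1.66% of all genes, rose by edgeR quasi-likelihood with Benjamini-Hochberg adjustment: GND1 (0.28 ± 0.053, adjusted p = 0.0106) and HXK2 (0.29 ± 0.066, adjusted p = 0.0281). The count of the 21 was 3, 4 and 3 without construct replicate 1, 2 or 3, beside 6.95%, 12% and 8.66% of all genes called in either direction. Without deletion replicate 2 or 3 neither was called, and without deletion replicate 1 or wild-type replicate 2 or 3 only GND1 was. Their levels in the construct libraries were 475, 437 and 437 CPM and 1440.2, 1197 and 1329 CPM, so that replicate 1, not replicate 3, was the highest for both, unlike for GND2 and HXK1. The list as a whole was highest in construct replicate 3, with medians of 0.0498, 0.0833 and 0.23 relative to the wild-type mean in construct replicates 1 to 3. Of the 21, 10, 13 and 16 lay above all wild-type libraries there, beside 29.6%, 33.8% and 37.3% of all genes. SED1, a cell wall protein gene and the paralog of SPI1, stood at 1551, 1771 and 5347 CPM in the construct libraries, and its log2 difference from the deletion was 0.57 ± 0.37 with all libraries and −0.23 ± 0.072 without replicate 3, neither called (adjusted p = 0.381 and 0.0701 by edgeR quasi-likelihood with Benjamini-Hochberg adjustment). Per kilobase of coding length the wild-type level of HXK2 was 747 CPM and that of HXK1 18.1 CPM. GND1 stood at 286 CPM per kilobase beside 6.37 for GND2, SOL3 at 276 beside 3.27 for SOL4, and PGM1 at 120 beside 14.1 for PGM2. The cytosolic catalase CTT1 stood at 5.87 CPM per kilobase and the peroxisomal CTA1 at 14.7. On this scale the highest wild-type levels among the 36 belonged to SOD2 (185 CPM per kilobase), HSP12 (142), YGP1 (118), PNC1 (111) and TPS1 (90.4). SOL4, CTT1, ALD3, GPH1 (6.18) and GND2 had the lowest.

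Growth-state genes were read beside the stress genes. The summed level of 15 glucose-repressed genes, which mark cells leaving growth on glucose, was 257 to 269 CPM in the wild type, 247 to 261 CPM in the deletion, and 255, 257 and 278 CPM in construct replicates 1 to 3. The only call among them was POX1, an oxidase of fatty acid breakdown, lower in the deletion (−0.68 ± 0.16, adjusted p = 0.0317 by edgeR quasi-likelihood with Benjamini-Hochberg adjustment). That call was lost when wild-type replicate 1, 2 or 3 or deletion replicate 2 or 3 was left out, with adjusted p-values up to 0.127 by the same test. Relative to the wild type their median was −0.28, −0.081 and 0.16 in the construct replicates. In replicate 3, 7 of the 15 lay above all wild-type libraries and 4 below them, beside 37.3% and 38.6% of all genes. Their part in the levels of the 36 genes was not tested.

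The genes that stress is known to repress were also measured. Of 51 ribosome biogenesis genes, edgeR quasi-likelihood called 3 lower in the deletion, beside 2.16% of all genes. It called 1 lower in the construct strain against the deletion and 0 against the wild type, beside 3.72% and 0.067%. At an unadjusted p under 0.05 the 51 genes counted 31, 1 and 35, beside 21.8%, 22.5% and 12.8%. DESeq2 called 11, 1 and 5, beside 10%, 8.39% and 1.21%. The first edgeR count was 34 without construct replicate 3, beside 18.3% of all genes called in either direction (520 of 6008 lower). It was 8 without construct replicate 1 or 2, beside 8.18% and 10.6% in either direction (174 of 6004 and 241 of 5994 lower). Without any 1 wild-type or deletion library it was 0 or 1, beside 2.79% to 3.43% in either direction. The second count then ran from 0 to 3, where leaving out 1 library called 2.41% to 12% of all genes in either direction. Their median relative to the wild-type mean was −0.13, −0.25 and −0.17 in the deletion replicates and −0.10, −0.12 and −0.35 in the construct replicates. Construct replicate 3 was thus their lowest library by median and the highest for the 36 stress genes. All 51 lay below every wild-type library there, beside 38.6% of all genes. In construct replicates 1 and 2 the number was 40 and 44, beside 30.3% and 32.7%. In the deletion replicates it was 48, 50 and 49, beside 32.9%, 34.4% and 32.7%, so it was not particular to construct replicate 3. Of 137 cytosolic ribosomal protein genes 13 rose in the deletion, beside 4.24% of all genes. In the construct strain against the deletion 9 fell, beside 3.72%. The medians of the 137 were 0.11, −0.086 and −0.038 in the construct replicates. The 13 ran from 1 (without wild-type replicate 3) to 28 (without construct replicate 3) when single libraries were left out. Of all genes, 2.84% and 18.3% were called in either direction in these fits (2.03% and 9.6% higher). The 9 likewise ran from 0 (without deletion replicate 2 or 3) to 34 (without construct replicate 1). Of all genes, 2.41% or 2.73% and 6.95% were called in either direction in these (114 of 6011, 127 of 6008 and 266 of 6004 lower).

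Promoter elements were set beside the levels, using genes outside the 36. Of these, 4615 had no stress response element in the 250 bases, 942 had 1 and 117 had at least 2. In construct replicate 3 their median log2 level relative to the wild type was −0.014, 0.088 and 0.18 in that order. In construct replicate 2 the medians were −0.0056, 0.034 and 0.063, and in construct replicate 1 they were 0.0007, 0.0009 and −0.003. In the deletion replicates all medians lay between −0.0044 and 0.035. Among the 36 themselves, the 11 genes without the element had a median of 0.73 in construct replicate 3, the 15 with 1 element 0.41 and the 10 with at least 2 elements 0.77. The 11 without it were MSN4, USV1, XBP1, TMA10, SPI1, YGP1, TPS2, GSY1, GPH1, HXK1 and GCY1. These are descriptions of letters in a fixed window and of levels, with no test.

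**Figure D5:**
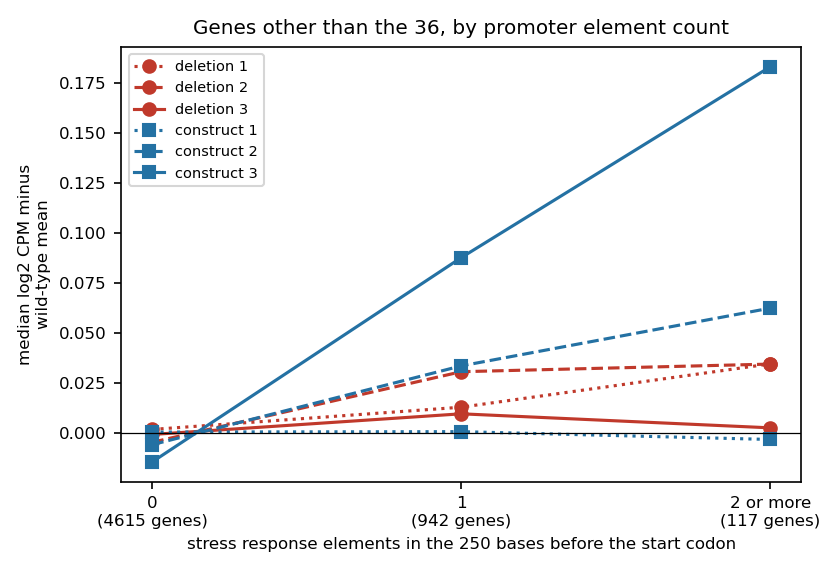
Median log2 CPM minus the wild-type mean (vertical axis) of genes outside the 36, by the number of stress response elements in the 250 bases before the start codon (horizontal axis), 1 line per deletion or construct library. The line of construct replicate 3 runs from −0.014 to 0.18, and those of the other libraries stay at or below 0.063.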

How the data were processed

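The authors deposited raw counts per feature, whole numbers with no scaling between libraries. Per the submitters' processing notes, FastQC 0.11.5, STAR 2.7.0, DESeq2 1.34.0 and build R64 were used; the counting tool and strand setting were not given in the sources used here, so overlapping and antisense genes are uncertain. Features were matched to the R64 annotation by locus tag (6047) or symbol (41), and 1039 were not matched. Genes were filtered with filterByExpr and tested by quasi-likelihood in edgeR 4.0.16 (R 4.3.3) with TMM factors. A single model of the 9 libraries had strain as its term, which left 6 residual degrees of freedom. P-values were adjusted by Benjamini-Hochberg over all genes tested, with a threshold of 0.05. CPM use TMM-scaled library sizes, with a prior count of 2 on the log scale. Alternatives were limma 3.58.1 (voom, with and without quality weights), DESeq2 1.42.0, other scalings, filters and thresholds, the 2 groups of a comparison alone, a replicate block, and each library left out; the counts of called genes in the other lists under these settings were added after the data were seen. The procedure was tested on simulated data.

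In each library 3 counts correspond to 0.143 to 0.213 CPM, which covers counting error only. No library was a copy of another: chi-square tests of replicate counts gave 2.91 to 65.8 per degree of freedom. The members and the gene lists were chosen with earlier results of these data known. Values in every library are printed for 15 genes named in the rule for the list and for the members with the largest or smallest log2 difference of a comparison; those of GLK1, RTN2, NTH1, GRE3, YGP1, SPI1, TMA10 and STF2 were added after their values were seen. Promoters were read from the RefSeq sequence of R64, and all 36 members were found there.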

Additional observations from a re-analysis of the deposited data

How the results depend on the processing

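In the deletion against the wild type, where 382 genes and 0 of the 36 were called, DESeq2 called 597 genes, limma-voom with quality weights 1563 and 3 of the 36, and the 2 groups alone 1588 and 3. An adjusted p under 0.01 left 163 genes and a log2 difference of at least 1 left 49. Leaving out 1 library gave 168 to 1097 genes, 0 to 3 of the 36, and medians of −0.0762 to 0.0771, the positive end without wild-type replicate 2. In the construct strain against the deletion (321 genes, 0 of the 36), DESeq2 called 501 and 7, quality weights 621 and 1, no composition factors 4 of the 36, and the 2 groups alone 153 genes; 143 genes passed 0.01 and 41 the log2 difference of at least 1. The median of the 36 was 0.0535 with quality weights, and leaving out 1 library gave 0.0998 to 0.4377, 145 to 720 genes and 0 to 10 of the 36. In the construct strain against the wild type (11 genes), DESeq2 called 72, quality weights 40, the 2 groups alone 4, an adjusted p under 0.01 5 and the log2 difference of at least 1 6, and leaving out 1 library 4 to 73. The median was 0.0118 with quality weights and 0.0872 to 0.4074 without 1 library, and 0 of the 36 were called under each of these settings.

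Without composition factors the genes called were 187 higher and 316 lower in the deletion (253 and 129 with them), and 196 and 181 in the construct strain against the deletion (99 and 222 with them). Over the 36 genes and the alternatives, 1794 single values stayed within 1 standard error and on their side of the threshold. A further 97 moved more, 38 became called, and 0 became called with the opposite sign. None of the 36 was called in the main fit, so no call could be lost or reversed. Values that were not called could change sign. For MSN4 the construct strain against the deletion went from 0.15 to −0.25 without construct replicate 3. The causes of these changes were not tested. Same-numbered libraries did not deviate together (9 pairs, correlations −0.107 to 0.074, 0 over 0.1). Those with different numbers reached −0.132 and 0.14. Such correlations cannot show whether same-numbered isolates were grown or processed together, and the main model used no pairing. A replicate block gave 328, 281 and 11 genes called in the 3 comparisons, 0 of the 36 in each, and medians of −0.0295, 0.301 and 0.2762. Genes with few counts are limited by depth: 31 of the 36 reached 100 counts in at least 3 libraries.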
